A study of Mus musculus with 8 samples.

Results

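Mouse chromosome 14 outside 2 stretches that are poor in H3K4me3 in H3f3b null testes, from 0 to 9 Mb and from 41 to 45 Mb, is described here by its H3K4me3 regions. The 4 region lists of the study were merged where regions overlapped or touched, which gave 16519 union regions on all chromosomes and 796 on chromosome 14. The 162 that touched either stretch were left out (88 from 0 to 9 Mb and 74 from 41 to 45 Mb), and the other 634 regions, 3.84% of all union regions, are the members. The chromosome and the bounds of both stretches were chosen by the measured loss of regions between wild-type and null testes in these same libraries. Differences between the genotypes are therefore given for the members as a description. Intervals on shares lost show the counting error alone, and calls from a fit over all regions stand beside their share among all regions, with nothing read from either. The libraries came from testis tissue of adult C57BL/6 mice that were H3f3b WT/WT (WT) or H3f3b null (KO), with WT 66 and WT 74 against KO 67 and KO 73. Each list comes from chromatin precipitated with an antibody to H3K4me3, and the 4 input libraries of the series were not analysed here. The labels name no driver, conditional allele or pooling of animals, and do not say that each number is a separate animal, so the spread within a genotype may be technical.

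H3K4me3 is trimethylation of lysine 4 on histone H3. It sits over the starts of active genes and over starts that are held ready, and its domains are often widest at genes that define a cell's identity. H3.3 is the histone H3 variant that is laid down outside DNA replication, at active genes and during the chromatin changes of spermatogenesis. H3f3b is one of a pair of mouse genes that make the same H3.3 protein, and H3f3a is the other. Chromosome 14 of the mouse is known for the T cell receptor alpha and delta locus, for clusters of olfactory receptor and ribonuclease A genes, and for the cardiac myosin heavy chain genes. Regions are given by their mm9 positions. Gene positions and bases of that build were not used here, so members carry no gene names, and testis marker genes and the H3f3b locus were not examined. A testis is a mixture of cells, and fewer cells of a type and less H3K4me3 per cell cannot be told apart in such libraries.

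The regions on either side of a bound differed in width or in the lists that held them. The first member, from 9004366 to 9006508, measured 2098 bp (WT 66), 1864 bp (WT 74), 1908 bp (KO 67) and 1851 bp (KO 73). The last region before it, from 8930683 to 8931836, covered 1080, 1091, 911 and 639 bp in the same order. Below 41 Mb the nearest member, from 40895117 to 40895757, had WT lengths of 501 and 641 bp and was in neither KO list. The first region beyond that bound lay from 41779147 to 41780412, with 1214, 760, 902 and 912 bp. The member next above 45 Mb, from 45052314 to 45054740, covered 1968, 2427, 1897 and 1883 bp, and the region just below that bound was found in WT 66 alone, over 669 bp from 44961451 to 44962119. The last member of the chromosome, from 124385821 to 124387457, had WT lengths of 1637 and 786 bp and was in neither KO list.

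Most members were found in both WT lists. There were 455 such regions, 71.8% of the members, against 76.7% of the 15204 union regions on the other 18 autosomes. Of the remainder, 119 were in 1 WT list and no KO list, 38 in 1 WT list and at least 1 KO list, 21 in 1 KO list alone and 1 in both KO lists only. The 455 regions of both WT lists are the base of what follows. In the null testes 331 of them were in both lists (shared), 46 in 1 list and 78 in neither (lost).

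Each library held fewer H3K4me3 regions here in the null testes. WT 66 listed 527 and WT 74 listed 546, while KO 67 listed 361 and KO 73 listed 420, so that the genotypes did not overlap. Their means, 536.5 ± 13.4 for the WT pair and 390.5 ± 41.7 for the KO pair (SD, n = 2 each), put KO 27.2% lower, where the other autosomes were 18.7% lower. In lists held to the length of the shortest, the KO mean was 363 and the WT mean 368.5. Covered length was 0.796 and 0.769 Mb in WT and 0.497 and 0.553 Mb in KO. Its means of 0.782 ± 0.0185 and 0.525 ± 0.0392 Mb (SD, n = 2) lay 32.9% apart, against 28.7% on the other autosomes. Listed regions of at least 3000 bp numbered 29 in each WT library, 5 in KO 67 and 4 in KO 73, a mean 84.5% lower in KO, against 78.5% lower on the other autosomes. The median width overlapped between the genotypes, with 1348 and 1234.5 bp for the WT pair beside 1293 and 1260.5 bp for the KO pair. The widest single listing spanned 5095 bp (WT 66), 6097 bp (WT 74), 4120 bp (KO 67) and 4244 bp (KO 73).

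The members took a smaller part of a null list than of a wild-type list. They made up 3.74% and 3.75% of all regions in WT 66 and WT 74, and 3.44% and 3.36% in KO 67 and KO 73. Their place in the order of scores differed too. The score is the value the authors' tool gave each region. Ranked within its own list from 0 for the lowest score to 100 for the highest, the median member stood at the 46.2 and 47.2 percentiles in the WT lists and at the 51.7 and 53.5 percentiles in the KO lists. Regions of the other autosomes stood between 51.1 and 51.4 in all 4 lists. The members of the WT lists were thus weaker by this rank than regions of the other autosomes pooled, and those of the KO lists were not. Lists of different length rank different regions, so this is no measure of a change in score. Single autosomes varied too. For regions in both WT lists, the median of the mean WT percentile was 55.4 in the members. On the other autosomes it ran from 51.1 (chromosome 13) to 61.9 (chromosome 11). At 501 bp, the narrowest width in any list, stood 12.1% and 13.6% of the members in the WT lists and 6.37% and 8.81% in the KO lists. On the other autosomes these shares were 8.05%, 10.5%, 5.84% and 10.3% in the same order.

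Even without both stretches, a larger share of both-WT regions was lost on chromosome 14 than on any other autosome in the lists as deposited. The 78 lost members were 17.1% of 455 (95% exact binomial interval 13.8 to 20.9). Over all chromosomes, 11.8% of both-WT regions were lost, and on the other autosomes 1283 of 11668, or 11.0% (10.4 to 11.6). The interval covers counting error only and takes regions as independent, which neighbours are not. Chromosome 5 was next with 16.0% (13.7 to 18.6), then chromosome 10 with 14.7% (12.0 to 17.6). The lowest share was 7.14%, on chromosome 19. KO 67 lacked 111 both-WT members (24.4%, against 19.5% on the other autosomes), and KO 73 lacked 91 (20%, against 12.9%). For each KO library alone the share was the highest among the 19 autosomes, but only narrowly for KO 67. Chromosome 5 came next in both, with 24.0% for KO 67 and 17.3% for KO 73. The share held by a single KO library, 10.1% (7.5 to 13.3), lay close to the 10.4% of the other autosomes. Of these 46 regions, 33 were in KO 73 and 13 in KO 67. The first place was not kept in lists made alike. With the lowest-scoring 25% of each list dropped, the share lost was 12.9% against 11.4% on the other autosomes. With all lists held to the length of the shortest, it was 6.91% against 6.08%, and in both cases 6 autosomes had a larger share. Judged without WT 66, so that presence in WT 74 alone was asked for, it was 26.9% against 19.7%.

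**Figure D1:**
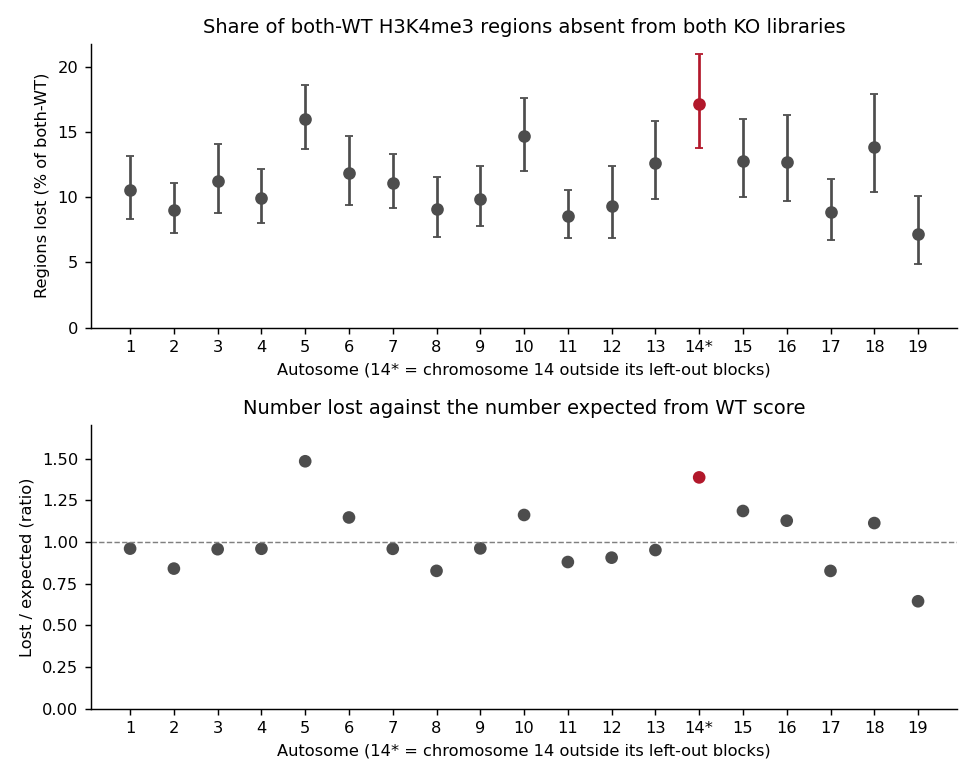
Upper panel: share of both-WT regions absent from both KO lists (y axis, percent) for each autosome (x axis), with 95% exact binomial intervals as bars. Lower panel: number lost divided by the number expected from WT score (y axis, ratio, dashed line at 1). Chromosome 14 outside its left-out blocks, in red, has the highest share, 17.1%, and a ratio of 1.39, below the 1.48 of chromosome 5.

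Weak regions are more easily missed, and the WT score was therefore taken into account. Both-WT regions were ranked by the mean of their percentiles in the WT lists, the share lost in each of 20 score bins was read from the other autosomes, and these shares were summed over the members. Regions of like WT score on the other autosomes gave 56.2 expected losses, so the 78 observed were 1.39 times as many. Chromosome 5 had 1.48 times its expected number, and no other autosome exceeded 1.19 (chromosome 15). The lowest ratio was 0.645, on chromosome 19. Bins of WT covered length in place of score gave 1.47, and score bins crossed with the distance to the nearest region gave 1.43. With the lowest-scoring 25% dropped the ratio was 1.14, from 44 lost and 38.5 expected. This was rank 6 from the highest among the 19 autosomes, with chromosome 15 highest at 1.34. In lists of equal length it was 1.15, from 23 lost and 19.986 expected, again rank 6, with chromosome 5 highest at 1.64. Without KO 73 the ratio of 1.14 had rank 4, and without KO 67 the ratio of 1.39 had rank 1.

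The share lost on chromosome 14 was the higher one in each score bin below the 80th percentile. It was closest to that elsewhere in the lowest bin, where 29 were lost and score gave 25.9, a ratio of 1.12. In the next 3 bins the ratios were 1.54, 1.79 and 2.3, the last of them from 4 losses. Of members below the 20th WT score percentile 48.3% were lost (35.2 to 61.6), beside 43.2% of such regions on the other autosomes. From the 20th to the 40th percentile it was 33.3% (24.3 to 43.4) beside 21.2% (19.6 to 22.9), and from the 40th to the 60th it was 12.8% (6.56 to 21.7) beside 6.79% (5.85 to 7.82). From the 60th to the 80th percentile 4 of 103 members were lost, 3.88% (1.07 to 9.65), beside 1.7%. Among the strongest members, at the 80th percentile or above, 0 of 104 were lost and 3 were missing from 1 KO list. The exact interval for 0 of 104 reaches 3.48%, and 3 regions, the limit taken here for a count of 0, would be 2.88%.

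By width the share lost was the higher one on chromosome 14 in every bin. Of members covered over less than 1000 bp in the WT mean, 37.4% were lost (28.2 to 47.3), beside 27.3% (25.6 to 29.0) elsewhere. Between 1000 and 2000 bp the shares were 13.5% (9.42 to 18.5) and 7.21% (6.56 to 7.9). Between 2000 and 3000 bp they were 4.71% and 4.22%. At 3000 bp or more 2 of 26 members were lost, 7.69% (0.946 to 25.1), against 20 of 875 regions, 2.29% (1.4 to 3.51). Unlike the share by score, that of members thus did not fall all the way with width, but the widest bin rests on 2 losses. The 78 lost members had a median WT covered length of 974 bp, from 501 to 3526.5 bp, and 63 of them (80.8%) stood below the 40th WT score percentile. The shared members had a median of 1625.5 bp.

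**Figure D2:**
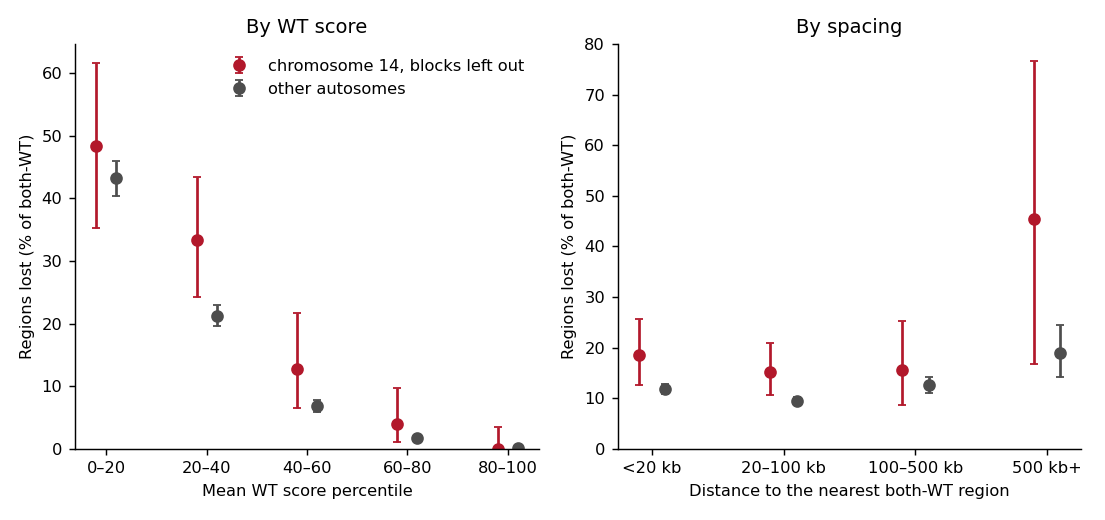
Share of both-WT regions that were lost (y axis, percent) by mean WT score percentile (left) and by distance to the nearest both-WT region (right), for chromosome 14 outside its blocks (red) and the other autosomes (grey), with 95% exact binomial intervals as bars. Shares are lower at higher scores in both, and the red point lies above the grey one in each bin but the last of score, where 0 of 104 members were lost.

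Members were more widely spaced than regions of the other autosomes pooled, but within the range of single autosomes. The median distance from a both-WT member to the nearest other one was 39.7 kb, against 31.1 kb on the other autosomes pooled. On single autosomes the same distance ranged from 21.8 kb on chromosome 19 to 45.5 kb on chromosome 1. Members within 20 kb of another made up 33.2%, and 18.5% of them were lost (12.7 to 25.7), beside 11.8% (10.8 to 12.8) elsewhere. At 20 to 100 kb the shares lost were 15.2% (10.7 to 20.8) and 9.44% (8.67 to 10.3), and at 100 to 500 kb they were 15.7% and 12.6%. The 11 most isolated members, 500 kb or more from the next, lost 5 (45.5%, 16.7 to 76.6), beside 19% of such regions elsewhere. Their median WT score percentile was 24.8, however, against 44.8 elsewhere, and score gave 2.56 expected losses among them.

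Loss was uneven along the chromosome. In windows of 5 Mb, 15 windows held at least 10 both-WT members (425 in all) and their shares ran from 0 of 10 at 15 to 20 Mb (0 to 30.8) to 10 of 33, or 30.3% (15.6 to 48.7), at 25 to 30 Mb. Between 30 and 35 Mb 10 of 43 were lost (23.3%), and between 35 and 40 Mb 3 of 12 (25%). Windows with few losses stood between those with many. At 55 to 60 Mb, the window richest in regions, 2 of 55 were lost, 3.64% (0.443 to 12.5), where score gave 5.15. At 70 to 75 Mb it was 1 of 25, and at 75 to 80 Mb 10 of 43 again. Near the end of the chromosome 4 of 18 were lost at 115 to 120 Mb (22.2%, 6.41 to 47.6) and 5 of 20 at 120 to 125 Mb (25%, 8.66 to 49.1). Among windows of 10 Mb with at least 10 regions, the highest share was 25% at 120 to 130 Mb, again 5 of 20. Among such windows of 2.5 Mb it was 40.9% (9 of 22), at 32.5 to 35 Mb. In 9 of the 15 windows the number lost exceeded that expected from score, and in 6 (40%) the share was 20% or more, beside 53 of 364 such windows (14.6%) on the other autosomes. The highest share of any such window elsewhere was 51.9%.

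The stretch from 25 to 40 Mb held 23 of the 78 losses, in 88 both-WT members (26.1%), where score gave 12.7. In the remaining 367 members 55 were lost, 15.0%, where score gave 43.6, a ratio of 1.26. The ratio was thus larger in this stretch, at 1.81, but the stretch was picked after the windows had been seen. Outside it the number lost was also above that expected. Whether counting error alone could give the ratio of 1.26 there was not tested. Between both left-out blocks 29 of 143 members were lost (20.3%, 14 to 27.8), and beyond the second block 49 of 312 (15.7%, 11.9 to 20.2). Members closer than 5 Mb to a block lost 12 of 51 (23.5%, 12.8 to 37.5), those at 5 to 20 Mb lost 36 of 242 (14.9%, 10.6 to 20) and those farther away lost 30 of 162 (18.5%, 12.9 to 25.4). The share was not ordered by distance. With each block widened by 1 or 3 Mb at its bounds, 17% and 16.2% of the members left were lost.

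**Figure D3:**
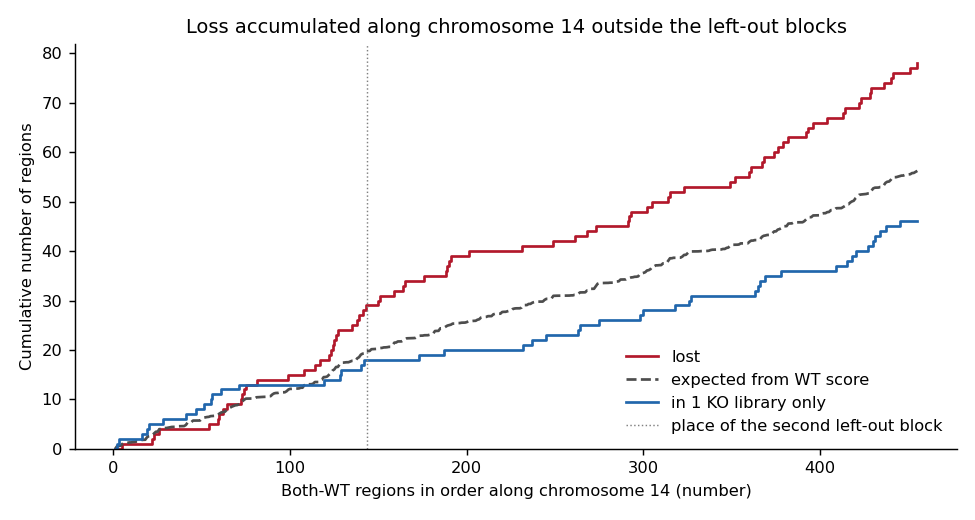
Cumulative number of regions (y axis) over the both-WT members in their order along chromosome 14 (x axis): lost (red), found in 1 KO list (blue) and expected to be lost from WT score (dashed); the dotted line marks the place of the second left-out block. The red line ends at 78, above the dashed line's 56.2, and is flat where the region-rich window with 2 losses lies.

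WT score and width also varied along the chromosome. The median WT score percentile of a window with at least 10 members ran from 40.4 at 120 to 125 Mb to 75.5 at 70 to 75 Mb. The median WT covered length ran from 1203.25 bp in the former window to 1806 bp at 60 to 65 Mb. The windows from 25 to 40 Mb stood low by score (43.6, 41.8 and 46.7). From 80 to 115 Mb regions were sparse: 28 both-WT members, 6.15% of all, lay in these 35 Mb, and 6 of them were lost. In the windows with at least 10 members, the median change in covered length of shared regions lay between -0.23 and 0.01, as log2 KO over WT.

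Lost members often lay next to each other. In the order of both-WT regions, 43 of the 78 lost members (55.1%) had a lost region as their direct neighbour, beside 356 of 1283 (27.7%) on the other autosomes. Chromosome 5 had 49.0%, chromosome 4 had 34.9%, and chromosome 8 had the lowest share, 10.2%. A larger share lost can by itself bring more neighbours that are both lost, and its part in the 55.1% was not tested. By share lost, chromosomes 5 (16.0%) and 10 (14.7%) came next, and they had 49.0% and 27.1% in such runs. There were 4 runs of at least 3 lost members, holding 17 regions. The longest run on the other autosomes counted 8 regions, and all 3 runs of 6 or more there were on chromosome 5.

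The longest run on chromosome 14 held 6 regions over 410 kb, from 34458568 to 34868351. The first of them, from 34458568 to 34459797, had 501 and 1230 bp in its WT pair. Another followed at 34460319 to 34461136 (781 and 660 bp), and 3 more lay together from 34827007 to 34832075, with 501 to 1470 bp in a WT library. The last, from 34864599 to 34868351, covered 3300 and 3753 bp and was the widest of all lost members. Their mean WT score percentiles ran from 9.43 to 76.9, so the run joins weak regions to a strong one. On its left stood a shared region, from 34402125 to 34403422, where the WT lengths of 887 and 1111 bp stood beside KO lengths of 1178 and 981 bp. The next region on its right, from 34956034 to 34956810, was in KO 73 over 630 bp and not in KO 67. Without this run the share lost among members was 16.0%.

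A run of 4 lost regions lay within 66.2 kb, from 27138433 to 27204673. Its regions measured 2022, 501, 1032 and 824 bp for WT 66, and for WT 74 they measured 1206, 501, 806 and 1204 bp. Ahead of it a region from 27130811 to 27132578 had WT lengths of 1510 and 1167 bp and 501 bp in KO 67, and was not listed in KO 73. The other run of 4 spanned 104 kb from 52210741 to 52315202, where WT 66 had 1189, 1219, 1559 and 1495 bp and WT 74 had 1000, 828, 1651 and 1573 bp. The region before it, from 52192329 to 52193906, was present in both WT libraries over 1424 and 1552 bp and in KO 73 over 501 bp. Both runs were thus preceded by a region that 1 KO library lacked and the other held at the narrowest width.

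The lost members were then ranked by the smaller of their WT lengths. After the region of 3300 and 3753 bp that ends the longest run came a region from 75989256 to 75993068, whose WT lengths were 3297 and 3063 bp. Its scores of 126.7 and 164.5 stood at the 64.5 and 79.7 percentiles of their lists. The third, from 118676560 to 118679853, covered 2381 and 3294 bp and had another lost region 1.65 kb away. The fourth, from 25111499 to 25114298, covered 2444 and 2369 bp and stood at the 61.1 and 59.5 percentiles. The fifth and sixth lay from 64604402 to 64606836 (2109 and 2001 bp) and from 45369125 to 45371284 (1861 and 2058 bp). None of the 6 had a region in KO 67 or KO 73. Ranked by the lower of their WT score percentiles, the region that ends the longest run again came first, at 70.3 and 83.6, before those at 75989256 and 25111499.

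Shared members were mostly narrower in the null testes, about as much as regions elsewhere. Over the 331 shared members the median covered length stood at 1678 bp (WT 66), 1564 bp (WT 74), 1365 bp (KO 67) and 1395 bp (KO 73). The median log2 KO over WT length was -0.16, with quartiles of -0.37 and -0.02, and 257 of 331 (77.6%) were below 0. On the other autosomes the median was -0.18, with 80.2% below 0. Both KO lengths lay below both WT lengths in 151 members, 45.6%, where the share over all shared regions was 47.4%. Both lay above in 17 members, 5.14%, against 4.74% over all. By limma with Benjamini-Hochberg adjustment over all 9742 shared regions at an adjusted p of 0.05, 13 members were called narrower, where 3.6% of all shared regions were, and 0 wider, where 0.0103% were. Without adjustment 67 members (20.2%) had a p under 0.05, and so had 19.5% of all shared regions. All these shares are near the background, and nothing is read from them, because the same libraries and contrast led to the choice of the chromosome. Leaving out any 1 of the 4 libraries left 0 calls by limma among the members and among all regions, with 36 to 69 members at an unadjusted p under 0.05. These were 10.7% to 19% of the members tested, and over all regions the share was 11.1% to 17.8%. Subtracting each library's median over all shared regions turned the members' median to 0.07 and that of all shared regions to 0.05, so that under both scalings the members lay close to all regions, whose median was -0.18 before.

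**Figure D4:**
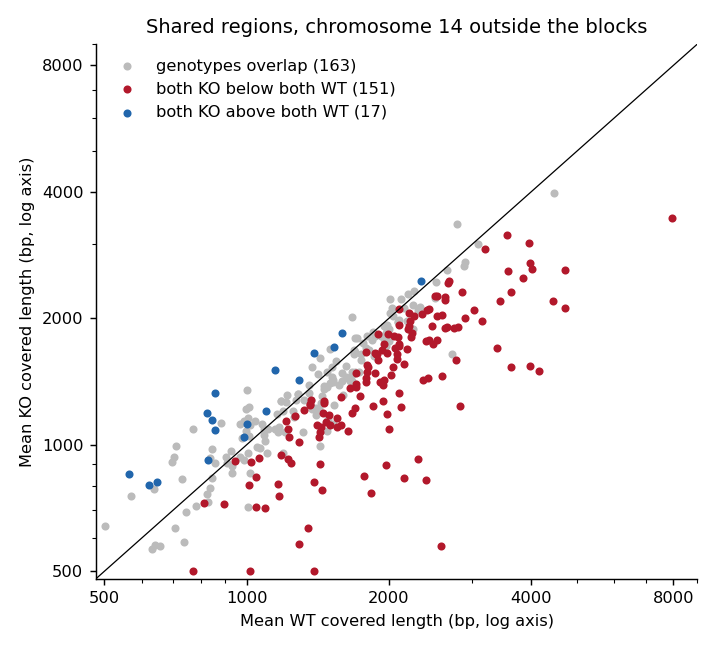
Mean covered length in KO (y axis, bp, log scale) against WT (x axis, bp, log scale) for the 331 shared members, with equal lengths on the line. Red points (151) have both KO lengths below both WT lengths, blue points (17) both above, and grey points (163) overlap. The point farthest below the line has a mean length of 2577 bp in WT and 574 bp in KO.

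Of the 5 shared members widest in WT, 4 had less coverage in each KO library than in either WT library. Such an order was the rule among shared regions of at least 3000 bp in both WT libraries, where 17 of 19 members (89.5%) and 582 of 641 regions of the other autosomes (90.8%) had it. The widest shared member, from 70604693 to 70613658, joins several listed regions, which sum to 7913 and 8003 bp for WT 66 and WT 74 but to 2320 and 4601 bp for KO 67 and KO 73. The next, from 46274427 to 46279418, went with 4824 and 4621 bp of WT coverage and 2524 and 2705 bp of KO coverage, a log2 difference of -0.85 ± 0.11 (limma SE). Its scores were near the top of every list, at the 99.3, 99.2, 95.8 and 98.5 percentiles. A domain from 101596707 to 101601734 had WT lengths of 4921 and 4511 bp against KO lengths of 2018 and 2224 bp (log2 difference -1.15 ± 0.12 SE). The one from 55510726 to 55515313 covered 4323 and 4563 bp against 2120 and 2277 bp (log2 difference -1.02 ± 0.11 SE).

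The genotypes overlapped in the other of these 5 shared members. It lay from 122503386 to 122508470 and measured 5085 bp (WT 66), 3879 bp (WT 74), 4120 bp (KO 67) and 3828 bp (KO 73). Its log2 difference was -0.16 ± 0.16 (limma SE). It held the highest score of any member in each of the 4 lists, 546.9, 460.1, 344.2 and 375.5. It was also the widest listed member of KO 67.

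Of the members that reached 3000 bp in both WT libraries there were 24, 5.27% of the both-WT members. Choosing regions for their WT width by itself favours smaller values in the other libraries. Of the 24, 2 were lost, 3 were in KO 73 but not KO 67, and 19 were shared, with a median log2 difference of -0.66. On the other autosomes there were 689 such regions, and the 641 of them that were shared had a median of -0.55. In 18 of the 24 (75%) neither KO library reached 3000 bp, against 61.4% on the other autosomes, and in 3 (12.5%) both did, against 19%. Absence from a KO list was seen in 5 of 24 (20.8%) and in 6.97% elsewhere. The 3 found in KO 73 but not KO 67 included the widest in WT after the member that starts at 70604693. Their WT lengths were 5095 and 5675 bp, then 795 bp in KO 73 (from 69787797 to 69793581), 4798 and 6097 bp and then 2270 bp (from 70474135 to 70480231), and 3699 and 4665 bp and then 1200 bp (from 22558517 to 22563181). With 24 regions these shares rest on few counts. In a domain from 63378177 to 63381481 the genotypes overlapped, its WT lengths being 3153 and 3013 bp and its KO lengths 3174 and 2833 bp.

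Among shared members with no overlap between the genotypes, the largest relative difference was at 27793548 to 27796432, with WT lengths of 2699 and 2455 bp and KO lengths of 501 and 647 bp (log2 difference -2.18 ± 0.20 SE). Its KO scores of 20.2 and 24.6 were near the lowest of their lists, so it was close to being absent. At 62142968 to 62147905 the WT lengths were 4938 and 3370 bp, while KO 67 had 2367 bp and KO 73 had 630 bp, a wide spread within each genotype. At 64054142 to 64056662 they were 2521 and 2272 bp against KO lengths of 1014 and 635 bp. A pair of neighbours followed, from 59795439 to 59799454 (4003 and 3958 bp against 932 and 2145 bp) and from 59760352 to 59762950 (2257 and 2354 bp against 501 and 1347 bp). The smaller KO value was in KO 73 in 2 of these 5 regions and in KO 67 in 3.

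Members that were wider in both KO libraries were short in WT. Their median WT length was 986 bp, against 1984 bp for those narrower in both. The largest difference was at 102007081 to 102008609, where 778 and 935 bp (WT) stood against 1129 and 1529 bp (KO; log2 difference 0.62 ± 0.23 SE). Then came 21612296 to 21613266 (501 and 627 bp against 738 and 971 bp) and 78303358 to 78304754 (798 and 850 bp against 1268 and 1109 bp). The last of the 5 were 26661249 to 26662506 (885 and 804 bp against 1031 and 1258 bp) and 55221662 to 55223330 (1322 and 974 bp against 1383 and 1630 bp). No member was called wider by limma.

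**Figure D5:**
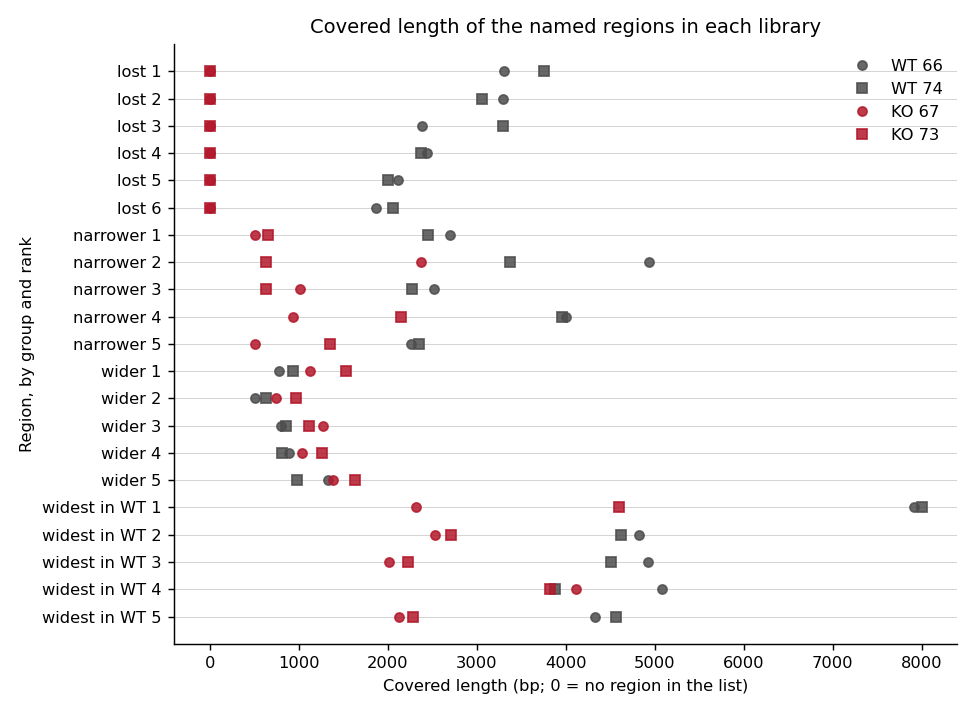
Covered length (x axis, bp, 0 where a list has no region) of the named members in WT 66 and WT 74 (grey circles and squares) and KO 67 and KO 73 (red circles and squares), by group and rank as in the text (y axis). Red marks stand at 0 for the 6 lost regions and left of the grey ones for the 5 narrower regions, and among the widest regions grey and red overlap in 1, the one with the highest scores.

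Gained regions, found in both KO lists and in neither WT list, were rare. Of 339 both-KO members 1 was gained, 0.295% (0.00747 to 1.63), where the share over all chromosomes was 0.589%. It lay from 56109545 to 56110527, and measured 501 bp (KO 67) and 761 bp (KO 73). Its scores were 20.5 and 40.6, at the 1.53 and 26.8 percentiles of their lists.

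Members held by a WT library were also missing more often from the other WT library than regions elsewhere, a measure that the choice of the stretch did not use. Of members in WT 66, 68 of 523 were missing from WT 74, 13.0% (10.2 to 16.2), against 9.64% (9.14 to 10.2) on the other autosomes. The other way it was 89 of 544, 16.4% (13.3 to 19.7), against 12.3% (11.7 to 12.9). Of members in KO 67, 20 of 359 were missing from KO 73, 5.57% (3.44 to 8.47), against 3.16% (2.82 to 3.52). Of those in KO 73, 78 of 417 were missing from KO 67, 18.7% (15.1 to 22.8), against 17.9% (17.2 to 18.6). Between the KO libraries the intervals thus overlapped with those of the other autosomes in both directions. Regions of like score on the other autosomes gave 64.1 and 84.3 expected absences in the WT direction, so these were 1.06 times as many in both, and 12.3 and 72.6 in the KO direction, where the ratios were 1.62 and 1.07. By score, absence between the WT libraries was thus close to that elsewhere. The part of this in the loss between genotypes was not tested.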

How the data were processed

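H3K4me3 ChIP-seq region lists of 2 WT and 2 KO testis libraries were used. Bowtie and HOMER are named, with mm9 as the build, per the submitters' processing notes; software versions, settings and use of the inputs were not given in the sources used here. For each library the authors deposited 1 BED list, with positions in bp and a score of unstated scale for each region, used only within a list. Scores below 100 were whole multiples (within 0.055) of 0.874 (WT 66), 1.39 (WT 74), 0.325 (KO 67) and 1.45 (KO 73), and absolute depth is unknown. If 1 such step stood for 1 tag, depth relative to KO 73 would be 4.46 (KO 67), 1.66 (WT 66) and 1.04 (WT 74). That reading was not tested, and presence in a list was not adjusted for depth.

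Starts were counted from 1. Presence in a union region took an overlap of 1 bp or more, and covered length is the summed width of its rows there. Expected losses used 20 score bins of the other autosomes. limma 3.58.1 (R 4.3.3, lmFit and eBayes with a variance trend) was fitted on log2 covered length of all shared regions, without a pseudocount. A run on simulated widths with set changes checked the code alone and lends no weight to the calls made here. With 2 libraries against 2, no exact permutation p can go below 0.33. Other steps used Python 3.11.15 and pandas 2.3.3.

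Members, named regions and alternatives were chosen with earlier results of these data known. Named regions were the 6 lost with the largest smaller WT length and the 3 with the highest smaller WT score percentile, all gained, the 5 narrowest and 5 widest by log2 KO over WT without overlap of genotypes, the 5 widest in WT, and those next to the bounds or at the ends of the longest run; members of 3000 bp and the regions beside runs were added after their values were seen.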

Additional observations from a re-analysis of the deposited data

How the results depend on the processing

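Of 76 values recomputed under alternatives, 50 kept their direction and stayed within the spread, the counting interval or 1.5 times the count. Another 14 moved farther, 4 reversed and 8 counts of limma calls were weaker. Most alternatives of the share lost were among those that moved. The 50 include alternatives that dropped low-scoring regions and left the count of regions of at least 3000 bp as it was. The share of both-WT members lost was 12.9% with the lowest-scoring 25% of each list dropped, 6.91% in lists of equal length, 21.0% where a library had to cover 50% of a region, 29.7% with WT 74 and KO 73 alone, and 20% to 26.9% with any 1 library left out; it was above that of the other autosomes each time, by 0.831 to 8.12 percentage points. The ratio to the loss expected from score ran from 1.14 to 1.47. The median log2 length ratio turned to 0.0724 with library medians subtracted and 0.0807 with quantile normalization (all shared regions: 0.05 and 0.07), and was -0.22 to -0.13 without a library. The 13 limma calls, of 352 over all regions, became 3 of 80 (medians subtracted), 2 of 56 (quantile normalization), 4 of 98 (no variance trend) and 0 of 0 with regions of at least 2 libraries (80 members at an unadjusted p under 0.05) or without any 1 library, where a genotype has a single library that is assumed to vary like the others. KO minus WT was -146 listed members, -5.5 in lists of equal length, -82.5 with the lowest 25% dropped and -175.5 to -116.5 without a library. For covered length it was -0.257 Mb, -0.164 in lists of equal length and -0.285 to -0.23 without a library. For regions of at least 3000 bp it was -24.5, and -25 to -24 without a library. For median width it was -14.5 bp, -326.75 in equal lists, -171 with the lowest 25% dropped and -71.25 to 42.25 without a library, so its direction is not settled. The mean share missing within a genotype was 13.4%, 9.39% in equal lists and 10.1% with the lowest 25% dropped, above the other autosomes each time (10.7%, 8.18% and 9.15%). The causes were not tested. The alternative without the longest run was added after seeing the data. No paired analysis was possible because the WT and KO libraries share no label number.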
